A study of Mus musculus with 9 samples.

Results

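Neutrophils isolated from malignant skin tumors were compared with neutrophils isolated from benign papillomas. The arrays were chosen by their labels, tumor 1 and 2 against papilloma 1, 2 and 3, which are 5 of the 9 one-color Agilent mouse arrays of the series. The other 4 arrays hold neutrophils from the skin around papillomas (papilloma skin, 2 arrays) and around tumors (tumor skin, 2 arrays). All mice were of the FVB/N strain and all had their skin treated with the carcinogen DMBA when 6 and again when 13 weeks old, and with the tumor promoter PMA 2 times a week from week 1 until week 18 to 20, so that no untreated animal is among the groups. Lesions were dissociated with collagenase, dispase and DNase, and the skin around them with collagenase. Gr-1bright cells were then sorted by flow cytometry. Each array holds RNA of a preparation pooled from several mice, which the study calls a biological replicate. The p-values rest on the spread between such preparations in the values fitted. Some columns of the deposited values depart from their arrays, as described below, so this spread may differ from that of the preparations themselves. Per the study's methods, chip effects were removed with ComBat. If the deposited values went through that step, the fit did not count the degrees of freedom it took. The p-values could then be too small. The question was what distinguishes the expression profile of neutrophils at the carcinoma stage from that at the papilloma stage.

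Neutrophils are short-lived granulocytes made in the bone marrow and recruited from the blood into inflamed tissue, where they release granule proteins, oxidants, chemokines and proteases. Within tumors they can take up immunosuppressive, angiogenic and matrix-remodeling functions. In the DMBA/PMA model, papillomas are benign outgrowths of the epidermis that carry a stroma of fibroblasts, vessels and nerves, and some progress to squamous cell carcinoma.

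Levels are the log2 values of the table that the authors deposited, and a gene's level is the median over its probes. The scanner output of the same arrays, quantile normalized and fitted with slide as a term, was used as a check. The 9 arrays sat on 3 slides. Slide 1 held tumor 1 and papilloma 1, slide 2 held tumor 2 and papilloma 2, and papilloma 3 lay on slide 3 without a tumor array. Signal was well above background for 52.7% to 58.3% of probes on the papilloma arrays, 63.5% on tumor 2 and 94.3% on tumor 1, and the log2 signal of the spike-in controls spanned 12.8 to 13.8 on papilloma arrays, 12.2 on tumor 2 and 7.66 on tumor 1. The signal range of the array of tumor 1 was thus narrower than that of the other lesion arrays. Among the skin arrays, papilloma skin 1 spanned 5.56 with 95.0% of probes well above background, and tumor skin 1 spanned 7.60 with 90.7%, against 13.0 on both others. Across probes, Spearman's rho between the value column of tumor 1 and its own scanner file was 0.827, and 0.947 with the file of tumor 2. The column of papilloma skin 1 had a rho of 0.588 with its own file and of 0.924 with the file of tumor 2, so values of papilloma skin rest on a column that departs from its array. Similarly, the columns of papilloma 2 and 3 were nearest to the file of the other array of the pair. This leaves the plain contrast between the groups as it is. Fits of the value table with a slide or replicate term follow the labels and could be affected. No spot was saturated. Scanner values or within-slide differences are given beside the main results for this reason.

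The sorted cells carried the markers of neutrophils on all 5 arrays. All 18 listed neutrophil markers, among them the calprotectin genes S100a8 and S100a9, the receptor gene Csf3r and the cytokine gene Il1b, were well above background on every papilloma and tumor array, and none passed the test. Retnlg, given under the other observations, missed it by the fold minimum alone. Their summed log2 level was 20.46 to 20.55 on the papilloma arrays, 20.70 on tumor 1 and 20.54 on tumor 2. S100a9 had a log2 level of 18.54, 18.45 and 18.54 in papilloma 1 to 3 and of 18.62 and 18.55 in tumor 1 and 2. Ly6g, which encodes an antigen that Gr-1 antibodies bind, had 9.30, 9.70 and 9.66 in papilloma against 10.74 and 9.95 in tumor, a difference of 0.79 with a limma adjusted p of 0.268. Epx, the eosinophil peroxidase gene, was not well above background on any papilloma array or on tumor 2. Of the 11 listed eosinophil genes, Siglec5 among them, 7 were well above background on the 3 papilloma arrays and 7 on tumor 2. Markers of cells other than neutrophils were detected as well. Of 15 endothelial markers all were well above background on the 3 papilloma arrays, and so were 21 of 23 fibroblast genes. The same held for 17 of 18 monocyte and macrophage genes and 15 of 17 dendritic cell and MHC class II genes. Of 20 T and NK cell genes it held for 18. In sorted preparations, fewer cells of a type and less RNA per cell cannot be told apart.

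Most of the genes that distinguished the stages were lower in tumor than in papilloma. Of 34797 genes, 211 (0.606%) were differentially expressed, which required a limma adjusted p (Benjamini-Hochberg) no higher than 0.05, a log2 fold change of 1 or more in either direction and a mean log2 level, over all columns, no lower than 6. In tumor 160 of them were lower (0.85% of the 18817 genes at that level) and 51 were higher (0.271%). Counted as probes, 63 of 55681 were higher and 186 were lower (0.447% together). None of the 211 genes had overlapping values between the groups, and neither did 37.7% of all genes at that level (17.5% lower and 20.2% higher in tumor). The median difference over all genes at that level was -0.01. The number of calls rested on single columns: it was 89 without papilloma 1, 145 without papilloma 2, 45 without papilloma 3, 47 without tumor 1 and 57 without tumor 2. It was 0 when the columns of papilloma skin 1 and tumor 1 were both left out and 0 with slide as a term.

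**Figure D1:**
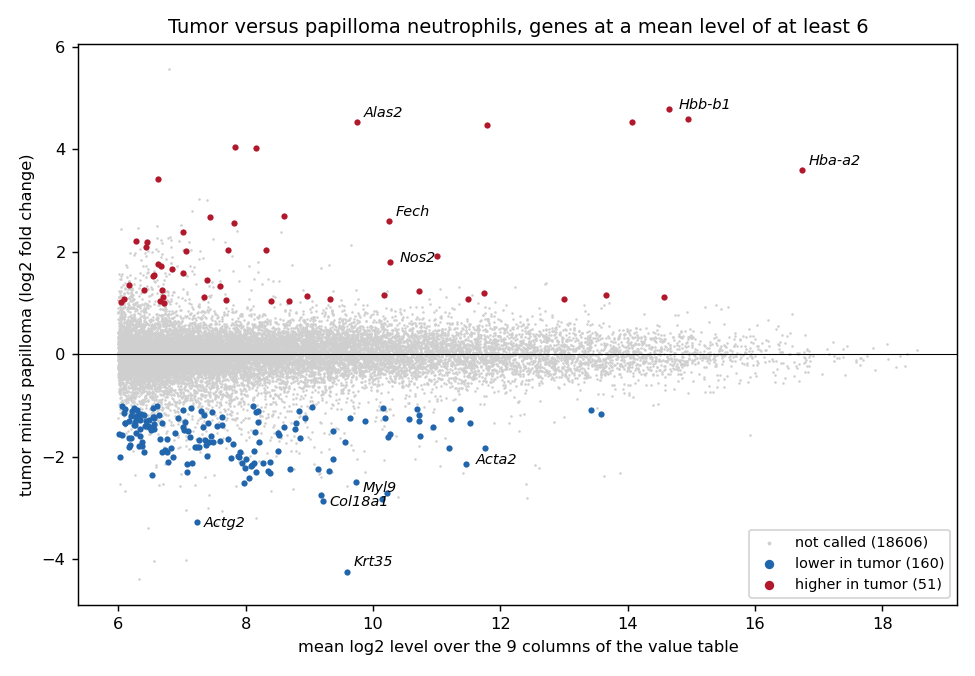
Log2 fold change of tumor over papilloma against the mean log2 level over the 9 columns of the value table, with 1 point per gene at a mean level of at least 6. Colored points are the 160 genes lower and the 51 genes higher in tumor by the test. The falls are more numerous, and the rises reach further, up to 4.78 for Hbb-b1.

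In the scanner files no gene passed the test with slide as a term (limma smallest adjusted p = 0.979 over 34566 genes, 1229 of them at an unadjusted p under 0.05). This fit had 3 residual degrees of freedom against 5 for the value table. The directions could still be compared. Of 209 genes of the 211 with scanner values, 202 (96.7%) differed in the same direction, 158 of 159 that were lower and 44 of 50 that were higher. On slide 2, where tumor 2 and papilloma 2 lay side by side, all 159 were lower and all 50 were higher, 152 and 45 of them by at least 1 on the log2 scale. On slide 1, 138 of the 159 were lower and 31 of the 50 higher in tumor 1 than in papilloma 1. Over all genes at that level, 60.7% were lower on slide 1 and 48.8% on slide 2. The contrast is not independent between the sources, which come from the same arrays. The value columns of both tumor 1 and tumor 2 ranked closest to the file of tumor 2, with a rho of 0.947 and 0.980. The agreement on slide 2 is therefore partly built in, and nothing is read from its being complete.

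**Figure D2:**
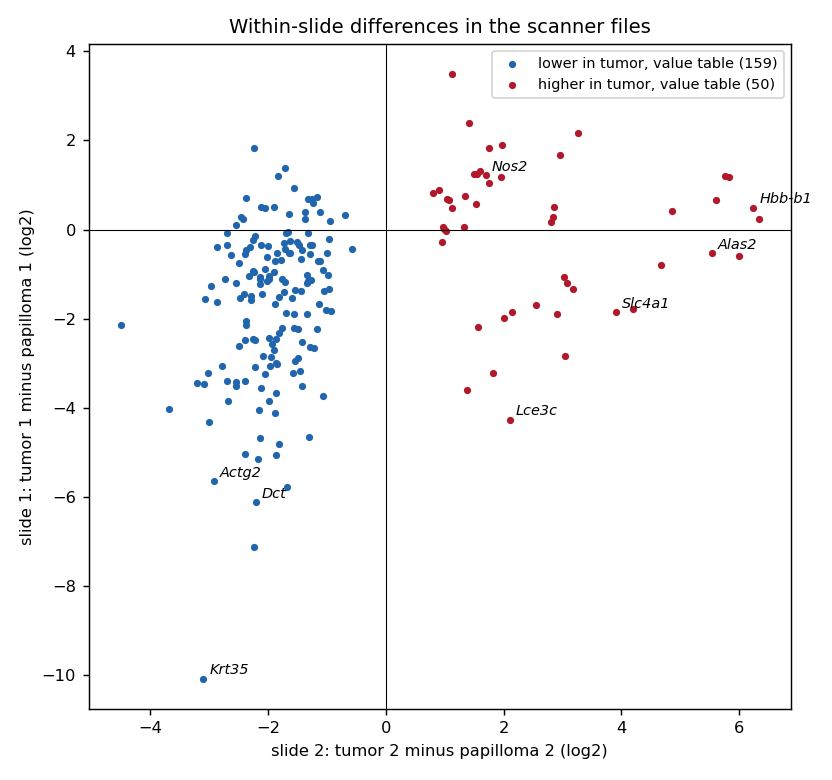
Difference of tumor 1 minus papilloma 1 on slide 1 (vertical) against tumor 2 minus papilloma 2 on slide 2 (horizontal), in log2 units from the scanner files, for genes called in the value table. The genes that fell lie left of zero and mostly below it, whereas those that rose lie right of zero and are split on the vertical axis, 31 of 50 above it.

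The contractile genes of smooth muscle and pericytes, the cells that wrap small vessels, fell together. Of 19 members on the array, 17 were at a mean level of at least 6, and 11 of these fell and none rose. The list median was -1.79. Actg2, the enteric smooth muscle actin, was probed on chromosome 6 of mm9 from 83462904 to 83462963. Its log2 level was 9.84, 9.57 and 9.68 in papilloma 1 to 3 and 6.18 and 6.65 in tumor 1 and 2. Every tumor value lay over 2 log2 units below every papilloma value, a fall of 9.71-fold (log2 fold change -3.28, SE 0.177, limma adjusted p = 0.00228). In the scanner files Actg2 had 9.81, 10.01 and 9.40 against 4.17 and 7.10, without overlap.

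Myl9 encodes the regulatory light chain of smooth muscle myosin, with its probe on chromosome 2 of mm9 from 156607301 to 156607360. Its log2 level was 11.54, 11.96 and 11.78 in papilloma against 9.10 and 9.45 in tumor, 5.60-fold lower (log2 fold change -2.49, SE 0.244, limma adjusted p = 0.00641). The scanner values, 11.80, 12.06 and 11.44 against 9.34 and 9.81, did not overlap either, and the within-slide differences were -2.46 and -2.25. Acta2, alpha smooth muscle actin, had 12.51, 12.47 and 12.64 in papilloma against 10.35 and 10.43 in tumor (log2 fold change -2.15, SE 0.148, limma adjusted p = 0.00228). Tagln, an actin-binding protein of the same cells, fell by 1.59 on the log2 scale, Cnn1 (calponin) by 1.83, Myh11 (smooth muscle myosin heavy chain) by 1.79 and Cald1 (caldesmon) by 1.43. Several pericyte genes fell too. The receptor gene Notch3 fell by 2.13, Pdgfrb, the receptor for platelet-derived growth factor B, by 1.99, the proteoglycan Cspg4 by 1.99 and the G-protein regulator Rgs5 by 2.16. Tpm1, Tpm2, Des and Mcam of the same list did not pass the test, with differences of 0.21, -0.46, -0.46 and -0.31.

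All 11 were lower on both slides in the scanner files, where the list median was -1.11 on slide 1 and -1.98 on slide 2. Without the column of tumor 1, 7 of the 11 calls were left, and 9 without tumor 2. The summed log2 level of the list was 14.30 to 14.45 on the papilloma arrays against 12.67 and 12.71 in tumor 1 and 2. Among the falls outside the lists, named after their values were seen, were other genes known from mural cells. Cd248 (endosialin) fell by 2.05, the Notch target Heyl by 1.90, Gja4 (connexin 37) by 1.65, the channel gene Trpc6 by 1.64, Higd1b by 1.35, the guanylate cyclase subunit Gucy1b3 by 1.34 and the endothelin receptor Ednra by 1.12 on the log2 scale.

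Contractile genes are textbook targets of serum response factor, which binds the CArG box, so the promoters of the Myl9 and Acta2 genes are shown for the 250 bases before their RefSeq starts in build GRCm38.p6, 5′ to 3′ on the gene's strand. Myl9 was chosen among the genes of largest fall, and Acta2 after its values were seen. The box was searched as CC, 6 bases that are each A or T, and GG, on both strands, first exactly and, after the windows were seen, with at most 1 base off. Capitals mark the exact box in Myl9 and boxes with 1 base off in Acta2. Boxes with 1 base off were not marked in Myl9, so the marked numbers do not compare the 2 promoters.
Myl9, chr2:156775214-156775463, plus strand: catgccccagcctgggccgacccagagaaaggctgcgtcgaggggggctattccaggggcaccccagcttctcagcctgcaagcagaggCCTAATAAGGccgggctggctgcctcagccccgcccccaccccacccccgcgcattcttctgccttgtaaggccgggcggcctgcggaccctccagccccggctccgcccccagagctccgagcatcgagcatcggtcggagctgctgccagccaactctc
Acta2, chr19:34255374-34255623, minus strand: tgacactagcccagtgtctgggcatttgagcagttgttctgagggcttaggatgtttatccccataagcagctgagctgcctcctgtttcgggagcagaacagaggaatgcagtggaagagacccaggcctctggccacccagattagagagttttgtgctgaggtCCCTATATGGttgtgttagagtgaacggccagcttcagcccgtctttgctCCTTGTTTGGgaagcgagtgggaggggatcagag
The Myl9 promoter holds 1 exact box, from 161 to 152 bases before the start, and the Acta2 promoter holds 2 boxes with 1 base off, from 84 to 75 and from 34 to 25 bases before the start. Among 32851 promoters of this length 1.47% hold an exact box and 18.6% a box with at most 1 base off. Of the 15 list members with a promoter entry, Myl9 was the 1 with an exact box, and 6 had a box with at most 1 base off (Acta2, Cald1, Cspg4, Lmod1, Myl9 and Tpm1). A match describes letters and not a bound site, a window without a match says no more than that these letters are not in it, and their part in the falls was not tested.

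**Figure D3:**
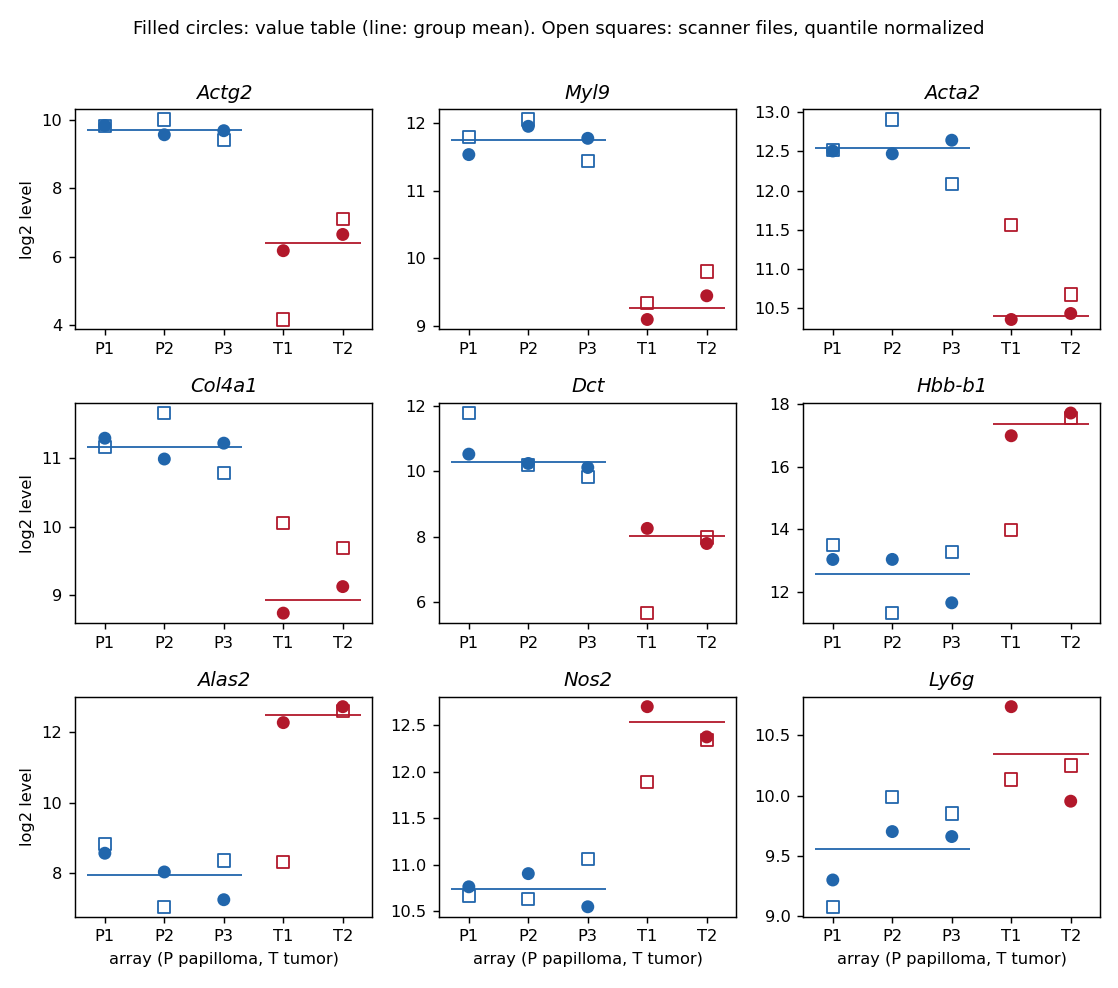
Log2 level of 9 genes on each of the 3 papilloma (P) and 2 tumor (T) arrays, with filled circles for the value table, lines for the group means and open squares for the quantile-normalized scanner values. The genes that fell are low on both tumor arrays in both sources, whereas Hbb-b1 and Alas2 are high in both tumor columns of the value table and, in the scanner values, on tumor 2.

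Collagens and other fibroblast genes were lower as well. All 23 members of the fibroblast list were at the level minimum. Of them 8 fell, none rose and 22 had a difference below 0, and the list median was -1.67. Col6a1, a chain of microfibrillar collagen VI, had a log2 level of 12.30, 12.04 and 12.55 in papilloma against 9.48 and 9.69 in tumor, a log2 fold change of -2.71 (limma adjusted p = 0.00228). Its scanner values were 12.56, 12.78 and 11.79 against 12.22 and 10.08, so that tumor 1 lay within the papilloma range and the fitted difference was -1.47. The other falls were Col6a2 (-1.80), the fibrillar collagens Col3a1 (-1.84), Col5a1 (-1.91) and Col5a2 (-1.66), fibrillin Fbn1 (-1.67), Pdgfrb and the transcription factor Twist1 (-1.18). The collagen I genes did not pass. Col1a2 differed by -2.80 (limma adjusted p = 0.0864) and Col1a1 by -2.31 (limma adjusted p = 0.127). Col1a2 had 14.42, 13.91 and 13.93 in papilloma and 10.19 and 12.37 in tumor, so that the tumor columns lay further apart than the papilloma columns. Within the slides, the 8 called genes were lower in 5 cases on slide 1 and in 8 on slide 2, with list medians of -0.15 and -1.37. Without the column of tumor 1 there were 2 calls in the list, and 5 without tumor 2.

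Basement membrane genes, a list set up after the values were seen, had 4 falls among 12 members at the level minimum and a median of -1.63. Col4a1, a chain of the network collagen IV, had 11.29, 10.99 and 11.22 in papilloma against 8.73 and 9.12 in tumor (log2 fold change -2.24, limma adjusted p = 0.00228). Its partner chain Col4a2 fell by 2.24, and Col18a1, the source of the fragment endostatin, by 2.87 on the log2 scale. The laminin gene Lama4 was the fourth. All 4 were lower on both slides, but by less on slide 1, where the list median was -0.57 against -1.59 on slide 2. Col18a1 differed by -0.61 on slide 1 and by -2.01 on slide 2, and by -1.05 in the scanner fit.

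Endothelial markers shared the direction, but only Flt1, a receptor for VEGF, passed the test (log2 fold change -1.70, limma adjusted p = 0.0487), and its 3 probes ranged from -1.70 to -0.29. All 14 members at the level minimum were lower in tumor without overlap between the groups, against 17.5% of all genes, and their median was -1.40. Kdr, the main VEGF receptor gene, had 11.46, 10.57 and 10.72 in papilloma and 9.35 and 9.94 in tumor. The list medians within the slides were -1.27 and -0.94.

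Pigment cell and nerve sheath genes, in lists set up after the values were seen, held falls as well. Of 10 melanocyte genes at the level minimum 5 fell, with a median of -1.28. Dct, an enzyme of melanin synthesis, had 10.53, 10.24 and 10.12 in papilloma against 8.26 and 7.79 in tumor (log2 fold change -2.27, limma adjusted p = 0.0175), and Tyrp1, Pmel and Mlana fell by 2.01, 2.04 and 1.88. Sox10, the transcription factor of melanocytes and Schwann cells, fell by 1.49. Of 11 Schwann cell genes 5 fell, among them the myelin protein gene Pmp22 (-1.11, probes at -1.82 and -0.41), S100b (-2.01) and Gldn (-1.42), and 2 were higher. The Schwann cell median was -0.89, while the summed log2 level of that list was 12.73 to 12.94 on the papilloma arrays, 12.87 on tumor 1 and 13.31 on tumor 2, so that tumor 2 lay above every papilloma array. All called genes of both lists were lower on both slides. Together, 32 of the 160 genes that fell are in the lists for muscle, fibroblasts, basement membrane, endothelium, melanocytes or Schwann cells. The share of all genes that these lists hold was not computed. The basement membrane list, like the melanocyte and Schwann cell lists, was also set up after the values were seen, so nothing is read from that count. Whether these falls lie in the RNA of neutrophils or in that of other cells within the sorted preparations was not tested.

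The gene with the largest fall was Krt35, a keratin of the hair shaft, with its probe on chromosome 11 of mm9 from 99953537 to 99953596. It had 11.88, 10.19 and 10.11 in papilloma against 5.98 and 6.99 in tumor, 18.9-fold lower (log2 fold change -4.24, SE 0.673, limma adjusted p = 0.0329). Its scanner values were 13.21, 9.90 and 9.75 against 3.13 and 6.80. The call was lost when any of the 5 columns was left out, with log2 fold changes from -4.75 to -3.67. The other genes among the 15 largest falls were Cyp26b1, which degrades retinoic acid (-2.74), the serine protease Prss23 (-2.52), the netrin receptor Unc5b (-2.42), the hyaluronan-binding Itih5 (-2.35), Lrrc32, which holds latent TGF-beta at the cell surface (-2.31), the membrane protein Parm1 (-2.29), the matrix protease Mmp11 (-2.29) and the collagen chain Col5a3 (-2.27).

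Hemoglobin and other erythroid genes rose in the value table, with the largest median of all lists. Of 10 red blood cell genes 9 were at the level minimum, and 8 of these rose. Hbb-b1, an adult beta globin listed as Hbb-bt in the reference, was probed on chromosome 7 of mm9 from 110961105 to 110961164. It had 13.04, 13.04 and 11.65 in papilloma against 16.99 and 17.72 in tumor, 27.5-fold higher (log2 fold change 4.78, SE 0.483, limma adjusted p = 0.0073). The alpha globins Hba-a1 and Hba-a2 rose by 4.60 and 3.60 and the beta globins Hbb-b2 and Beta-s by 4.54 and 4.47. Globin genes are near-identical copies, so how signal divides among their probes is uncertain. Alas2, the rate-limiting enzyme of erythroid heme synthesis, rose 23.2-fold (log2 fold change 4.53, limma adjusted p = 0.00821), from 8.57, 8.04 and 7.26 to 12.26 and 12.72. Fech, which inserts iron into heme, rose by 2.60, the anion exchanger Slc4a1 by 2.67, Bpgm, which makes the effector that lowers oxygen affinity, by 2.70, and the carbonic anhydrase Car2 by 2.01. Ahsp, the chaperone of alpha globin, was not well above background on any papilloma array. In the value table its tumor mean was at least 5.02-fold higher (limma adjusted p = 0.00853). The bound sets the tumor mean against the lowest signal among probes well above background. It does not hold for each tumor array, since Ahsp differed in the scanner files by 0.24 on slide 1 and by 6.34 on slide 2 (log2). Car1 of the same list had a difference of 0.20. In a longer list of erythroid genes, set up after the values were seen, 14 of 17 at the level minimum rose, against 0.271% of all genes. These are 14 of the 51 rises, and since the list was made with the values known, nothing is read from that count.

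The arrays differed in these genes. In the scanner files Hbb-b1 had 13.49, 11.32 and 13.28 on the papilloma arrays, 13.98 on tumor 1 and 17.57 on tumor 2. Alas2 had 8.84, 7.06 and 8.36 on papilloma, 8.32 on tumor 1 and 12.59 on tumor 2, so that tumor 1 lay within the papilloma range. The median of the red blood cell list was 5.54 on slide 2 and 0.41 on slide 1, where 5 of the 8 called genes were higher. The summed log2 level of the list in the value table was 14.85 to 16.15 in papilloma and 19.49 and 20.05 in tumor. Without the column of tumor 1, 5 of the 8 calls were left, and 4 without tumor 2. Whether the tumor 1 preparation held as much erythroid RNA as its value column shows was not tested.

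The Alas2 promoter is shown because this gene is a known target of GATA1, whose motif was searched as AGATAA and TGATAA. It was chosen after the values were seen. The window is the 250 bases before the RefSeq start in build GRCm38.p6, and capitals mark AGATAA as read on the opposite strand.
Alas2, chrX:150547167-150547416, plus strand: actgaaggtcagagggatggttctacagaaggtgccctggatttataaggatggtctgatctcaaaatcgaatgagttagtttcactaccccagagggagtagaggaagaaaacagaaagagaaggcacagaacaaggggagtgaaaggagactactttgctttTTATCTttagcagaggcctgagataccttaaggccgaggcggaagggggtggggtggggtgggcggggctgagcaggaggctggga
The match lies 86 to 81 bases before the start. AGATAA occurs on either strand in 9.99% of 32851 promoters and, among the 4 red blood cell genes with an entry, in that of Alas2. TGATAA occurs in 7.94% of them, Hba-a1 and Hba-a2 included. Whether the match has a part in the rise was not tested.

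Genes of the cornified envelope, the protein shell of the uppermost keratinocytes, were higher in tumor in the value table, whereas the slides differed in direction. Of 15 members at the level minimum 2 rose, Lce3a (2.39) and Lce3c (1.44), and the list median was 1.41. Of 12 genes of the late cornified envelope and SPRR2 clusters, listed after the values were seen, 7 rose, among them Sprr2f and Sprr2g by 2.04 each. Sprr2f had 9.22, 9.98 and 9.06 in papilloma against 10.98 and 11.94 in tumor (limma adjusted p = 0.0463). In the scanner files the cornified list had a median of 2.79 on slide 2 and of -2.13 on slide 1, both called genes were lower on slide 1, and the median with slide as a term was 0.01, or -0.07 after scaling to the 75th percentile. For the cluster list these values were 2.80, -3.08, -0.39 and 0.10. The 25 keratinocyte genes had no call and a median of 0.38, with 1.62 on slide 2 and -1.70 on slide 1. Krt14, a keratin of basal cells, had 13.16, 11.80 and 11.66 in papilloma and 11.71 and 13.52 in tumor, where the groups overlapped. Tumor 2 lay above the other columns and tumor 1 among them.

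**Figure D4:**
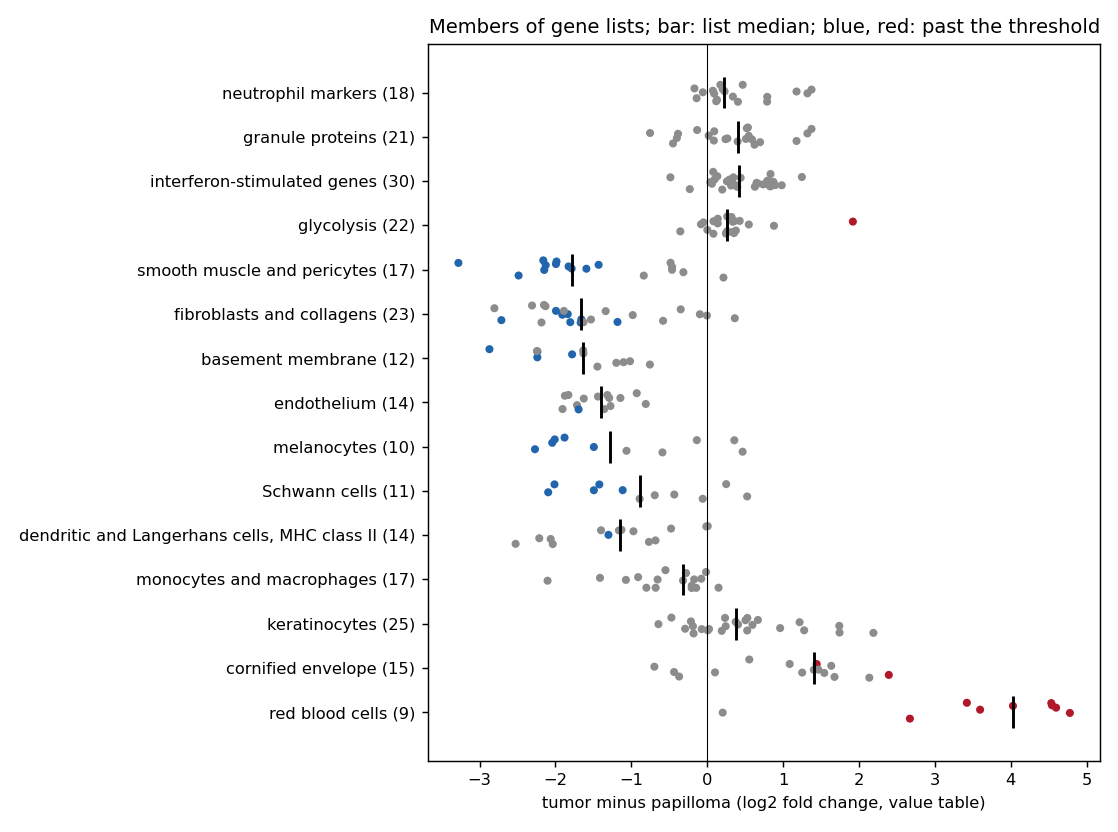
Log2 fold change of tumor over papilloma in the value table for each member of the gene lists at a mean level of at least 6, with the number of members beside each name and a bar at the list median. Colored points passed the test. Muscle, fibroblast and endothelial members lie mostly left of zero and red blood cell members far to the right. Of the 18 neutrophil markers 15 lie right of zero, up to 1.37, with a median of 0.22.

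Of the 6 genes plotted in the study, Nos2, the inducible nitric oxide synthase, was the 1 that rose. Its probe lies on chromosome 11 of mm9 from 78773567 to 78773626. Nos2 had a log2 level of 10.76, 10.90 and 10.55 in papilloma against 12.70 and 12.37 in tumor, 3.47-fold higher (log2 fold change 1.79, SE 0.195, limma adjusted p = 0.00853). The scanner values were 10.67, 10.64 and 11.06 against 11.89 and 12.34, without overlap, and the differences within the slides were 1.22 and 1.71. The call was lost without papilloma 3 (limma adjusted p = 0.0514) and without tumor 1 (limma adjusted p = 0.0805). The other 5 genes did not pass. Siglec5, listed in the reference as Siglecf, a sialic acid receptor, had 9.56, 10.25 and 9.99 against 11.18 and 11.16 (difference 1.23, limma adjusted p = 0.0558). Arg1 (arginase) differed by 0.40 (limma adjusted p = 0.763), Cd274, which encodes PD-L1, by -0.29 (limma adjusted p = 0.571), the scavenger receptor Olr1 by -0.76 (limma adjusted p = 0.0863) and Vegfa by 0.18 (limma adjusted p = 0.558). For Arg1 and Vegfa the groups overlapped, and the difference of Vegfa was -0.20 in the scanner files.

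Immunosuppressive genes had 1 rise and 1 fall. Of 23 at the level minimum, Nos2 rose and Havcr2, the checkpoint receptor TIM-3, fell, and the median was 0.03 (-0.28 in the scanner files). Havcr2 had 11.68, 11.98 and 11.96 in papilloma against 10.54 and 10.11 in tumor (log2 fold change -1.55, limma adjusted p = 0.0163), and it was lower by 0.70 on slide 1 and by 1.89 on slide 2.

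Glycolytic genes had 1 rise, Aldoc, the aldolase C gene, with its probe on chromosome 11 of mm9 from 78140198 to 78140257. Aldoc had 10.58, 10.85 and 10.51 in papilloma against 12.51 and 12.62 in tumor, 3.78-fold higher (log2 fold change 1.92, SE 0.140, limma adjusted p = 0.00228), with differences of 1.19 and 1.96 within the slides. Of the 22 members 19 were higher in tumor, and the median was 0.26, against 0.10 in the scanner files and -0.34 after scaling to the 75th percentile. The 22 genes of the hypoxia response had no call and a median of 0.34, which was -0.04 in the scanner files.

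Il6, an inflammatory cytokine, was the call among 27 inflammatory genes at the level minimum, of which 23 were lower in tumor with a median of -0.17. Il6 had 9.74, 10.17 and 9.33 in papilloma against 7.20 and 8.05 in tumor, 4.34-fold lower (log2 fold change -2.12, SE 0.306, limma adjusted p = 0.0237). In the scanner files it had 9.74, 9.07 and 10.53 against 8.83 and 8.00, without overlap and with differences of -0.90 and -1.06 within the slides. None of the 27 chemokine and chemokine receptor genes at the level minimum passed, with a median of -0.32. Their differences ranged from -1.78 to 2.40, with 15 lower and 12 higher in tumor. Ccl2 differed by 1.15, Cxcl5 by 1.46 (limma adjusted p = 0.0513), Ccl4 by -0.73 and Cxcr2, the receptor that draws neutrophils, by 0.17. Among 30 interferon-stimulated genes 28 were higher in the value table, 17 of them without overlap (20.2% of all genes), but none passed, and their median of 0.42 turned to -0.18 in the scanner files. Ifi47, a GTPase, had the lowest p of the list, with 11.08, 11.21 and 11.26 against 12.03 and 12.29 (difference 0.98, limma adjusted p = 0.026), which is under the fold minimum.

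Of 25 targets and ligands of TGF-beta at the level minimum 5 fell, with a median of -0.42. They were the ligands Tgfb2 (-1.90) and Tgfb3 (-1.39), the matricellular factor Ctgf (-1.90) and the contractile genes Acta2 and Tagln described above. Tgfb2 had 7.84, 7.80 and 7.82 in papilloma against 5.64 and 6.20 in tumor, and was lower by 2.43 and 1.99 within the slides. Tgfb3 was higher by 0.69 on slide 1 and lower by 1.31 on slide 2. Among 23 matrix proteases and inhibitors, Mmp11 and Adamts4 (-1.22) fell, and the median of -0.22 was 0.09 in the scanner files. Mmp8 and Mmp9, the collagenase and gelatinase stored in neutrophil granules, did not pass, with differences of 1.32 (limma adjusted p = 0.0698) for Mmp8 and 1.37 (limma adjusted p = 0.106) for Mmp9. Angpt2, an angiopoietin, was the call among 22 angiogenic factors (-1.62), whose median was -0.34.

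Further single calls came from other programs. The heat shock and unfolded protein list (19 genes, median -0.22, 0.09 in the scanner files) had Trib3, a pseudokinase, rise by 1.04 and Chac1, a glutathione-degrading enzyme, fall by 1.26. Trib3 was lower by 0.28 on slide 1. Among 26 AP-1 and early response genes (median -0.07) Fosb fell by 1.09, and among 21 adhesion molecules (median -0.06) the integrin gene Itgb3 fell by 1.02, with probes at -1.79 and -0.24. Of 14 genes of MHC class II and dendritic cells at the level minimum 13 were lower, with a median of -1.15, and H2-Eb1, a class II chain, passed (-1.30, limma adjusted p = 0.0088). H2-Ab1 and Cd74 had larger differences, -2.53 and -2.21, and did not pass, with limma adjusted p-values of 0.0729 and 0.0788. In a list of type 2 cytokine genes, set up after the values were seen, Il4, Il13 and the factor Gata2 passed the test among 7 at the level minimum, 3 others were higher and the median was -0.38 (-0.14 without tumor 1). Il4 had 7.83, 8.32 and 7.86 in papilloma against 6.13 and 6.25 in tumor (-1.82, limma adjusted p = 0.00472), Gata2 fell by 2.01, and both were lower on both slides. Il13 was not well above background on tumor 2, so no fold is given.

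In 12 of the 22 program lists and in 8 of the 14 lists of other cell types no gene passed. Beside those already given, the list medians were 0.40 for granule proteins (21 genes), 0.20 for S100 and stefin A, -0.03 for the actin cytoskeleton, 0.11 for the BCL2 family, -0.14 for lysosome and cathepsins, -0.17 for NRF2 targets and 0.02 for the respiratory chain. The cell cycle list had -0.17 in the value table and 0.88 in the scanner files. Among other cell types the medians were -0.32 for monocytes and macrophages, where 16 of 17 genes were lower, -0.59 for B and plasma cells, -0.12 for T and NK cells, -0.31 for eosinophils, -0.17 for mast cells, -0.13 for skeletal muscle and 0.32 for adipocytes. Scaling the scanner files to the 75th percentile gave a median difference of -0.16 over all genes at the level minimum, and quantile normalization of the scanner files with slide as a term gave a median of -0.15 over the same genes. With the 75th percentile scaling the medians turned below 0 for neutrophil markers, granule proteins, S100 and stefin A, the BCL2 family, glycolysis, hypoxia, immunosuppression, interferon-stimulated genes, the respiratory chain, the genes named in the study and the cornified envelope, and above 0 for the cell cycle, B and plasma cells and skeletal muscle.

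The skin arrays place these differences among all 4 groups. Lesions and skin were dissociated with different enzymes, so tissue and dissociation cannot be told apart where a lesion is set against skin. For 151 of the 160 genes that fell, papilloma had the highest mean of the 4 groups. Of the 160, 113 were also above papilloma skin by the same rule, against 4.49% of all genes at that level. In tumor, 123 of the 160 were not called against tumor skin, 26 were above it (5.09% of all genes) and 59 had their lowest mean in tumor. These genes were chosen for high papilloma and low tumor values on the same arrays, so nothing is read from any of these counts. For the 151, the 123 and the 59, the share over all genes was not computed. Notch3, for example, had group means of 6.84 in papilloma skin, 10.34 in papilloma, 6.69 in tumor skin and 8.21 in tumor. Actg2 had 6.11, 9.70, 5.52 and 6.42 in the same order. Of the 51 genes that rose, tumor had the highest mean for 48, and 41 were above tumor skin, against 5.09% of all genes. Both counts again come from the arrays that chose the genes, so nothing is read from them. Nos2 had group means of 7.84, 10.74, 9.73 and 12.53, so that its tumor skin was above its papilloma skin by 1.88 as well (limma adjusted p = 0.0263). Hbb-b1 had 14.94, 12.58, 14.80 and 17.36, and its papilloma mean was below both skin means.

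**Figure D5:**
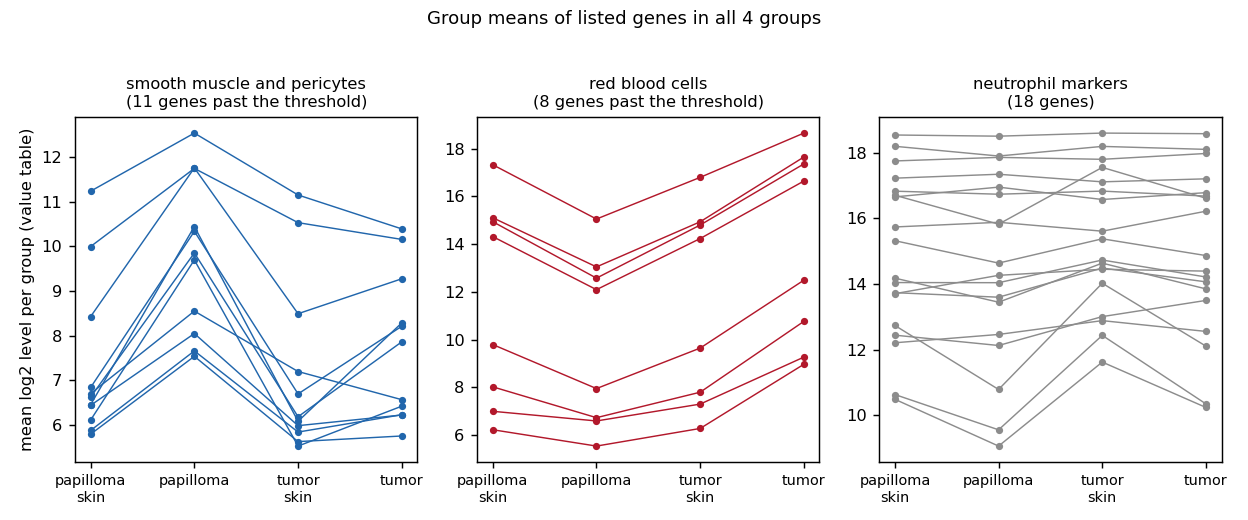
Mean log2 level per group in the value table, from left to right papilloma skin, papilloma, tumor skin and tumor, with 1 line per gene: the 11 muscle genes that fell, the 8 red blood cell genes that rose and the 18 neutrophil markers. Muscle genes peak in papilloma, red blood cell genes are lowest in papilloma and highest in tumor, and none of the neutrophil markers passed the test between papilloma and tumor.

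Skin around the lesions differed in the same direction for 72.0% of the 211 genes, 120 of the 160 that fell and 32 of the 51 that rose. The same share over all genes was not computed, and their median difference between the skins was -0.08. Nothing is therefore read from these counts, which also rest on the column of papilloma skin 1. Between the skins 131 genes (0.376%) were called, and 10 of these were among the 211. They include Il6, whose tumor skin lay below papilloma skin by 1.99 (limma adjusted p = 0.0443), and Col5a3, with 1.89 (limma adjusted p = 0.0135). The difference between lesions departed from that between skins for 31 genes (0.0891%), by the same rule applied to the interaction, of which 22 were among the falls and 4 among the rises. At an unadjusted p under 0.05 there were 4911 genes. For Acta2, the skins differed by -0.09, against -2.15 between the lesions. Without any single column the number of such genes was 0 to 8, and it was 0 without the columns of papilloma skin 1 and tumor 1.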

How the data were processed

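Neutrophil RNA of 9 preparations was measured on 1-color Agilent arrays. The authors deposited, for each array, Feature Extraction 10.7.3.1 output, with a fluorescence intensity per spot from which background was subtracted but which is unscaled across arrays, per the file headers. A processed table was deposited too, holding log2 values by probe. Per the methods, the authors used limma for quantile normalization and ComBat against chip effects. The scale of the table is log2, and the medians of its 9 columns lay close together, from 6.08 to 6.12. Whether the table went through both steps is not given in the sources used here, so its slide correction is unknown.

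Groups came from the labels. The value table (55681 probes) was fitted as deposited with limma 3.58.1 in R 4.3.3 over all 9 columns, with 5 residual degrees of freedom. From the scanner files, 59305 spots other than controls were put on the log2 scale without flagged outliers, averaged per probe (55155 complete), quantile normalized and fitted with slide as a term, with 3 residual degrees of freedom. The number of arrays limits the precision. Genes are medians over probes of a gene name, and 19984 names matched a RefSeq symbol. P-values were Benjamini-Hochberg adjusted over all genes. Named are the 15 largest falls and rises among differentially expressed genes with a symbol, the same sign in the scanner files and signal well above background on every array of the higher group, the 6 genes the study plots, Ly6g and Epx, and list members that passed or, where fewer than 2 did, those with high levels. Chemokines, MHC class II, collagen I, granule protease, Ifi47, Tpm1, Tpm2, Des, Mcam and Car1 values were added after the values were seen. Lists (36, and 6 added after the values were seen) and members were chosen with earlier results of these data known. Alternatives changed the scaling, background correction, slide handling, filters, unit and replicate block, and left out each array. The scripts were tested on simulated data. Some genes counted in the lists are not reported by name here. Figures used Python 3.11.15 and matplotlib 3.10.9.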

Additional observations from a re-analysis of the deposited data

Results flagged for a closer look

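The difference between tumor and papilloma neutrophils departed from the difference between tumor skin and papilloma skin neutrophils for 12 of the named genes and list members reported here, by an interaction contrast in limma on the value table. Without the columns of papilloma skin 1 and tumor 1, an alternative chosen after seeing the data for single genes, no gene passed, while the values of the 12 kept their direction, with -2.44 for Actg2, -3.23 for Dct and 5.37 for Hba-a1. No cause was tested.

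The interactions below 0 belong to genes that fell, that is, genes that were lower in tumor than in papilloma by more than their skins differed. The pigment genes Dct and Mlana had values of -3.55 for Dct (limma adjusted p = 0.0428) and -2.56 for Mlana (limma adjusted p = 0.0480). For Dct, tumor skin was above papilloma skin by 1.28, the opposite direction of the lesions. The contractile genes Actg2, Tagln and Acta2 had -2.69 (limma adjusted p = 0.0219), -2.13 (limma adjusted p = 0.0219) and -2.06 (limma adjusted p = 0.0264). The pericyte genes Cspg4 and Notch3 had -2.48 (limma adjusted p = 0.0219) and -1.98 (limma adjusted p = 0.0322). Parm1 had -2.26 and the protease gene Mmp11 -2.22, each with a limma adjusted p of 0.0322.

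Over all genes 9 interactions were above 0, and the largest, 8.29, was that of a transcript without a gene symbol. Among the 12 genes reported, those above 0 included the erythroid genes Hba-a1 and Fech. Their interactions were 4.77 (limma adjusted p = 0.0428) and 2.46 (limma adjusted p = 0.0235), and their skins differed by -0.17 and 0.13. Tnnc2, a skeletal muscle troponin, had 2.02 (limma adjusted p = 0.0412) and was not among the genes called between the lesions.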

How the results depend on the processing

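The value table gave 249 probes and 211 genes past the thresholds. Both counts were 0 with slide as a term and 0 without the columns of papilloma skin 1 and tumor 1 together. Leaving out 1 column gave 25 to 155 probes and 45 to 145 genes, a mean level of at least 7 gave 152 and 132, and array weights gave 421 and 337. The replicate block gave 1 probe and 9 genes. In the lesions the replicate number coincides with the slide, and tumor and papilloma arrays of the same number deviated with r of -0.50 and -0.27 in the value table and of 0.07 and -0.0045 in the scanner files. In the scanner files each alternative gave 0 probes, and 0 genes except 9 after ComBat. The fit without the compressed arrays had no residual degrees of freedom and was not run. The 31 interaction genes were 0 to 8 without 1 column, 0 with the replicate block, 0 without papilloma skin 1 and tumor 1, and 41 without the level minimum.

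Without papilloma skin 1 and tumor 1, calls fell to 0 in the lists of muscle (11), fibroblasts (8), red blood cells (8) and the cornified envelope (2). Without tumor 1 they were 7, 2, 5 and 0, and without tumor 2 they were 9, 5, 4 and 0. List medians moved as follows. Muscle had -1.35 in the scanner files, -1.90 to -1.61 without 1 column, -1.61 without papilloma skin 1 and tumor 1, and -1.59 without the level minimum. Fibroblasts had -0.77 in the scanner files, -1.14 with scaling to the 75th percentile, -1.80 to -1.26 without 1 column and -1.26 without both columns. Red blood cells had 2.62 in the scanner files and 2.83 with that scaling. The cornified envelope had 0.0099 in the scanner files, -0.069 with scaling to the 75th percentile, 0.55 to 1.96 without 1 column, 1.96 without both columns and 0.79 without the level minimum. The replicate block gave medians of -1.76, -1.64, 3.87 and 1.10. The signs also turned for the late cornified envelope and SPRR2 list (-0.39 in the scanner files), Arg1 (-0.017 to 0.82 without 1 column), Epx (0.59 with scaling to the 75th percentile) and Vegfa (-0.20 in the scanner files and -0.68 with that scaling). The cause was not tested. All 31 of the 38 named genes that were called lost the call in the scanner files. The 169 genes with the same direction on both slides were 161 to 171 under the alternatives.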

Other observations

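Genes outside the lists, and Retnlg of the neutrophil marker list, add values to the comparison. All were named after their values were seen. Saa1, an acute-phase protein gene, had 11.50, 11.94 and 11.22 in papilloma against 12.68 and 12.82 in tumor (log2 fold change 1.19, limma adjusted p = 0.0464), and was higher by 1.26 on slide 1 and by 1.49 on slide 2. Ifitm6, an interferon-induced transmembrane gene of myeloid cells, had 13.27, 13.26 and 13.42 against 14.66 and 14.22 (log2 fold change 1.12, limma adjusted p = 0.0205), with 0.83 and 0.80 within the slides. Both were also higher in tumor skin than in papilloma skin, by 1.63 and 1.19 (limma adjusted p = 0.0374 for each). Retnlg, a resistin-like gene of neutrophils, had 15.82, 15.86 and 15.80 against 16.72 and 16.52 (difference 0.79, limma adjusted p = 0.0304), which is under the fold minimum. Ptgds, a prostaglandin D2 synthase, had 9.77, 9.23 and 9.18 in papilloma against 7.19 and 7.37 in tumor (log2 fold change -2.11, limma adjusted p = 0.0098). Ltc4s, which makes leukotriene C4, fell by 1.42 on the log2 scale, and Epas1, the hypoxia-inducible factor gene of vessels, by 1.72.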
